A study of Mus musculus with 18 samples.

Results

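The lysine tRNAs were studied by Hydro-tRNA-seq in the hippocampus of 18 mice. All entries of the deposited table whose name begins with tRNA-Lys were taken, both mature and precursor. They comprised 17 mature isodecoders (tRNAs with the same anticodon but a different body sequence) of 213 in the table, of which 12 carried the anticodon CTT and 5 the anticodon TTT. They also comprised 19 pre-tRNA loci of 335, with 11 loci for CTT and 8 for TTT. Each isodecoder or locus has an entry per type of read, so the set held 125 of 3574 table entries. The 17 antisense entries of the same genes were left out, and they held 0 reads in all libraries. The mitochondrial lysine tRNA was not part of the set.

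The mice were male WT animals of a B6SJL background and 5xFAD mice, a model of Alzheimer's disease (AD) that carries mutant human transgenes expressed in neurons under the murine Thy-1 promoter. At 6 months of age, every mouse received bilateral hippocampal injections of a neuron-targeting adeno-associated virus that carried GFP and a short hairpin, either the control hairpin (shCT) or the one that targets RTP801 (shRTP801), and the hippocampi were taken 4 weeks later. All groups, controls included, therefore carried a virus, a short hairpin and GFP. There were 5 WT and 3 5xFAD mice with shCT, and 4 WT and 6 5xFAD mice with shRTP801. Each mouse gave its own library. The assay reads small RNA, so the level of RTP801 itself was not checked here. The tissue holds neurons and glia, and fewer cells of a type cannot be told apart from less RNA per cell.

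Lysine has a pair of codons, AAG and AAA. tRNA-Lys-CTT pairs with AAG, whereas tRNA-Lys-TTT reads AAA and can also read AAG through wobble pairing. The wobble uridine of tRNA-Lys-TTT is thiolated and carries a methoxycarbonylmethyl group set by the Elongator pathway, and the adenosine next to its anticodon is methylthiolated by CDKAL1. tRNA-Glu-TTC and tRNA-Gln-TTG share the same wobble modification. Pre-tRNAs are transcribed by RNA polymerase III with a 5′ leader and a 3′ trailer that are removed before the mature tRNA leaves the nucleus. No sequence of these tRNAs is printed, because the files used here hold none.

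In Hydro-tRNA-seq, RNA of tRNA size is cut from a gel and hydrolyzed, so that most reads cover only a part of a molecule. Summed over all table entries, the libraries held 18527898 to 89228299 reads, with 9850676 to 20292469 mature and 47875 to 318628 precursor tRNA reads. A read shared between entries counts in each of them, so these sums can exceed the number of reads sequenced. Levels are given below as the percentage of the mature or of the precursor tRNA reads of the library. The widest side of the Wilson 95% interval of a family in a mouse was 0.0156 percentage points for mature CTT, 0.00432 for mature TTT, 0.261 for precursor CTT and 0.147 for precursor TTT. These intervals and the limits given for 0 reads cover counting error only.

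Libraries of 3 mice stood apart from the other 15, namely WT shCT mouse 5, WT shRTP801 mouse 4 and 5xFAD shRTP801 mouse 7. Mitochondrial tRNAs took 0.00314%, 0.427% and 0.0317% of their reads summed over all entries, against 6.85 to 26.6% in the others. All entries named as snoRNAs together took 0.000358 to 0.0341% there, against 0.479 to 3.96% in the others. Among single markers, the 3 libraries held 0 reads of Snord116, a snoRNA cluster of neurons, against 141 to 10126 in the others. They held 0 to 1 reads of the neuronal Mir124 against 1 to 81. They also held 1175 to 6619 reads of the neuronal tRNA-Arg-TCT-4, against 61 to 1695. Markers of other cell types (Mir122, Mir451a, Mir144, Mir142, Mir223, Mir143 and Mir145) and the neuronal Snord115 have no entry in the table, and Mir9 had reads in 4 mice. These 3 libraries lie in 3 different groups. Most changes given below for lysine families, isodecoders and loci, and most limma counts of features under an unadjusted p, are given with and without them. Their part in the differences among mice was not tested.

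Mature tRNA-Lys-CTT was the more abundant of both lysine families, at a mean of 5.17% ± 1.25 (SD, n = 18) of mature tRNA reads, which placed it at rank 8 of 50 families. Mature tRNA-Lys-TTT took 0.527% ± 0.119 (rank 23). In the precursor reads, tRNA-Lys-CTT took 7.80% ± 2.33 (rank 5 of 48 families) and tRNA-Lys-TTT 1.43% ± 0.808 (rank 13). CTT exceeded TTT in all 18 mice, in both kinds of reads. The ratio of CTT to TTT reads ran from 5.04 to 16.1 in the mature pool (median 10.3) and from 1.51 to 18.4 in the precursor pool (median 5.39).

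No difference between genotypes or treatments was detected for either family. Mature tRNA-Lys-CTT was 5.93, 3.31, 4.58, 6.04 and 5.28% in WT shCT mice 3, 5, 6, 11 and 15. It was 5.03, 4.84, 4.39 and 6.03% in WT shRTP801 mice 4, 10, 17 and 21, and 6.58, 3.35 and 7.31% in 5xFAD shCT mice 1, 16 and 18. In the 6 5xFAD shRTP801 mice it ran from 3.65 to 7.64% (median 4.96). The groups overlapped throughout, and the mice of 5xFAD shCT and of 5xFAD shRTP801 each spanned most of the range of the whole series.

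The difference between 5xFAD shCT (5.75% ± 2.11) and WT shCT (5.03% ± 1.12) was 0.147 on the log2 scale (SE 0.301, 95% interval -0.49 to 0.78, limma adjusted p = 0.754). The direction of this change turned with the scaling. It was -0.0589 in edgeR, -0.0863 after centring on the median family and -0.623 in the deposited values. The median of all 49 families was 0.228 on percentages, -0.0547 in edgeR, -0.0059 after centring and -0.542 in the deposited values. WT shRTP801 (5.07% ± 0.690) differed from WT shCT by 0.0365 (SE 0.276, limma adjusted p = 0.991). 5xFAD shRTP801 (5.08% ± 1.41) differed by -0.14 from 5xFAD shCT (SE 0.291, limma adjusted p = 0.949) and by -0.0317 from WT shRTP801 (SE 0.266, limma adjusted p = 0.948). Without the 3 libraries low in mt-tRNA, these changes were 0.00463, -0.11, -0.17 and -0.055, respectively.

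Mature tRNA-Lys-TTT was 0.525, 0.657, 0.426, 0.593 and 0.512% in WT shCT mice 3, 5, 6, 11 and 15, and 0.790, 0.434, 0.456 and 0.443% in WT shRTP801 mice 4, 10, 17 and 21. It was 0.554, 0.40 and 0.521% in 5xFAD shCT mice 1, 16 and 18, and 0.347 to 0.729% (median 0.539) in 5xFAD shRTP801 mice. The highest mouse of each of the 3 groups that include a library low in mt-tRNA was that library, and the other 15 mice ran from 0.347 to 0.609%. Group means were 0.543% ± 0.0872, 0.531% ± 0.173, 0.492% ± 0.0811 and 0.529% ± 0.142. The log2 changes were -0.14 for 5xFAD shCT against WT shCT (SE 0.277), -0.066 for WT shRTP801 against WT shCT (SE 0.255), 0.0753 for 5xFAD shRTP801 against 5xFAD shCT (SE 0.269) and 0.000183 for 5xFAD shRTP801 against WT shRTP801 (SE 0.245). Their limma adjusted p values ran from 0.754 to 0.999. Without the 3 libraries the changes were -0.068, -0.20, -0.026 and 0.107, none of them past the threshold.

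**Figure D1:**
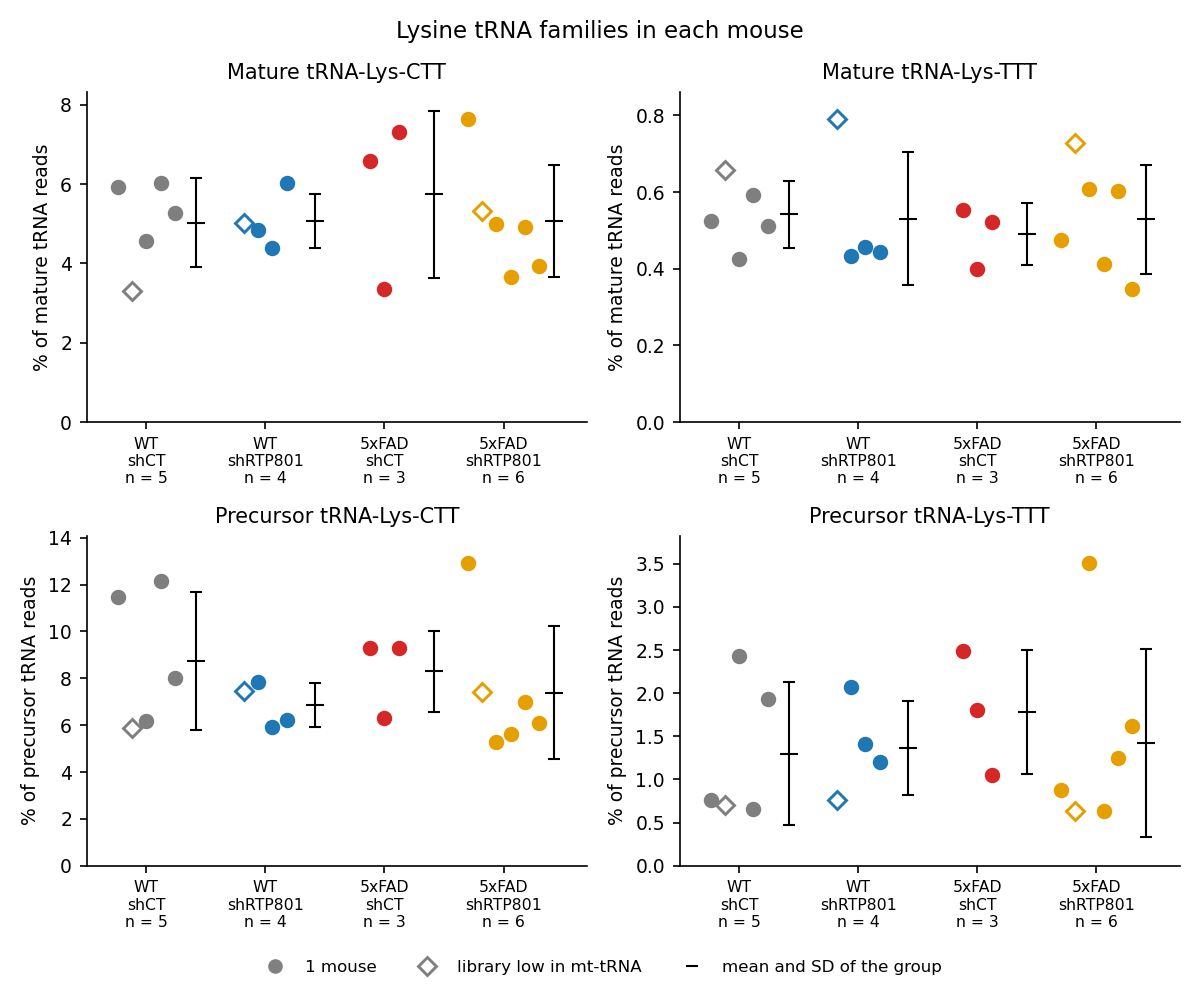
Percentage of mature (upper panels) or precursor (lower panels) tRNA reads taken by tRNA-Lys-CTT and tRNA-Lys-TTT, by group. Each symbol is 1 mouse, open diamonds are the 3 libraries low in mt-tRNA, and bars give the mean and SD. The groups overlap in every panel, the open diamonds are the highest mature TTT values (0.657 to 0.790%), and precursor TTT spans 0.638 to 3.51%.

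Precursor levels varied more than mature ones. Precursor tRNA-Lys-CTT was 11.5, 5.89, 6.17, 12.2 and 8.00% in WT shCT mice 3, 5, 6, 11 and 15, and 7.46, 7.83, 5.91 and 6.23% in WT shRTP801 mice 4, 10, 17 and 21. It was 9.29, 6.31 and 9.31% in 5xFAD shCT mice 1, 16 and 18, and 5.28 to 12.9% (median 6.54) in 5xFAD shRTP801 mice. WT shCT mice 3 and 11 and 5xFAD shRTP801 mouse 2 were high, and the groups overlapped. The largest change was that of WT shRTP801 against WT shCT, at -0.29 on the log2 scale (SE 0.307, 95% interval -0.94 to 0.36, limma adjusted p = 0.593), and -0.46 (SE 0.343, limma adjusted p = 0.319) without the 3 libraries low in mt-tRNA.

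Precursor tRNA-Lys-TTT was 0.766, 0.704, 2.44, 0.659 and 1.93% in WT shCT mice 3, 5, 6, 11 and 15, and 0.761, 2.07, 1.41 and 1.20% in WT shRTP801 mice 4, 10, 17 and 21. It was 2.49, 1.80 and 1.06% in 5xFAD shCT mice 1, 16 and 18, and 0.638 to 3.51% (median 1.06) in 5xFAD shRTP801 mice. The groups overlapped, 5xFAD shRTP801 mouse 8 was the highest of all, and no 5xFAD shCT mouse was among the lowest of the series. 5xFAD shCT exceeded WT shCT by 0.600 on the log2 scale (SE 0.582, 95% interval -0.63 to 1.83, limma adjusted p = 0.509), and 5xFAD shRTP801 lay -0.53 below 5xFAD shCT (SE 0.564, limma adjusted p = 0.683). The interaction of genotype and treatment was -0.73 (SE 0.777, limma adjusted p = 0.509). Without the 3 libraries these values were 0.436, -0.35 and -0.64. Leaving out single mice, they ran from 0.316 to 0.934, from -0.86 to -0.24 and from -1.07 to -0.45.

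limma called 0 of the 49 mature families (0%) and 0 of the 48 precursor families (0%) in each of the 4 comparisons and in the interaction of genotype and treatment. At an unadjusted p under 0.05 the counts were 0 to 6 mature and 2 to 10 precursor families, with no lysine family among them. With the 3 libraries left out, limma also called 0, with 0 to 10 mature and 2 to 14 precursor families at an unadjusted p under 0.05, again with no lysine family. edgeR called 0 families, and DESeq2 called 1 mature family, no lysine one, between WT shRTP801 and WT shCT. Exact two-sided permutation tests of the group means of both families, mature and precursor, gave p values of 0.278 or more in 16 tests, where the smallest p that the group sizes allow is 0.00476 to 0.0179. After Benjamini-Hochberg adjustment over the 4 comparisons of each measure, no value was under 0.893.

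No difference between groups was detected in the balance of both anticodons either. The mean log2 ratio of CTT to TTT mature reads with shCT was 3.19 ± 0.485 for WT and 3.48 ± 0.380 for 5xFAD mice, and with shRTP801 it was 3.30 ± 0.464 for WT and 3.26 ± 0.422 for 5xFAD mice (SD, n as above). In the precursor reads, in the same order, it was 2.91 ± 1.21, 2.28 ± 0.744, 2.41 ± 0.616 and 2.59 ± 1.21. The lowest exact two-sided permutation p of the 8 tests was 0.411, and 0.790 after Benjamini-Hochberg adjustment over 4 comparisons. The mature log2 ratio was 2.33, 2.67 and 2.87 in the 3 libraries low in mt-tRNA, and 3.03 to 4.01 in the others. Without these libraries, the differences in mature log2 ratio ran from -0.16 to 0.0953, with exact permutation p values of 0.571 to 0.679. The ratio varied more in precursor than in mature reads, with an SD over all mice of 0.983 against 0.415 on the log2 scale.

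**Figure D2:**
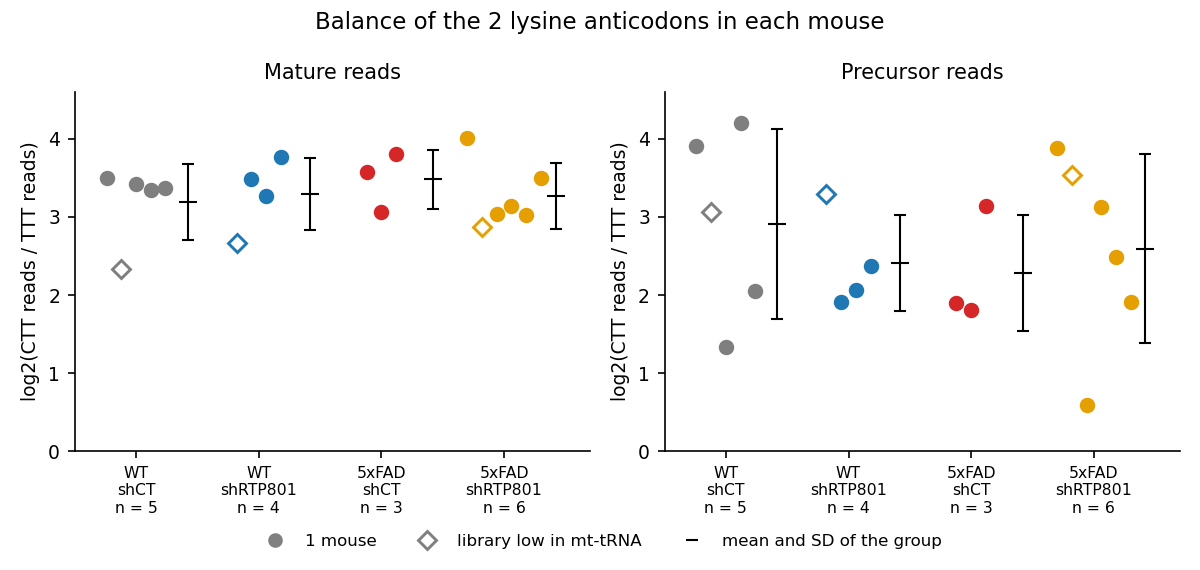
log2 ratio of tRNA-Lys-CTT to tRNA-Lys-TTT reads in each mouse, for mature reads (left) and precursor reads (right). Symbols and bars are as in the plot of the family percentages. The mature ratio is lowest in the 3 open diamonds (2.33 to 2.87), and the precursor ratio spans 0.59 to 4.2.

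Each family was dominated by 1 isodecoder. tRNA-Lys-CTT-3 gave 76.4% of all mature CTT reads, and between 72.3 and 85.4% in each mouse. tRNA-Lys-CTT-14 gave 12.7% and tRNA-Lys-CTT-2 gave 9.83%, and the other 9 CTT isodecoders together gave 1.06%. In the TTT family, tRNA-Lys-TTT-1 gave 91.2% (88.0 to 93.3% by mouse) and tRNA-Lys-TTT-2 gave 6.94%. tRNA-Lys-CTT-3, tRNA-Lys-CTT-14, tRNA-Lys-CTT-2 and tRNA-Lys-TTT-1 each held at least 1% of all lysine reads.

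tRNA-Lys-CTT-3 was 4.45, 2.82, 3.55, 4.57 and 3.99% of mature tRNA reads in WT shCT mice 3, 5, 6, 11 and 15. It was 3.96, 3.74, 3.20 and 4.47% in WT shRTP801 mice 4, 10, 17 and 21, 5.11, 2.42 and 5.49% in 5xFAD shCT mice 1, 16 and 18, and 2.66 to 5.75% in 5xFAD shRTP801 mice. Its groups overlapped as those of the family did, and the log2 changes ran from -0.13 to 0.0948 over the 4 comparisons, with SE 0.273 to 0.309. In the other 15 libraries they ran from -0.17 to -0.014.

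tRNA-Lys-CTT-14 and tRNA-Lys-CTT-2 traded places among mice. tRNA-Lys-CTT-14 ran from 6.66% of the CTT reads (WT shRTP801 mouse 10) to 17.1% (WT shCT mouse 11), and tRNA-Lys-CTT-2 from 3.53% (5xFAD shRTP801 mouse 7) to 16.1% (5xFAD shRTP801 mouse 14). tRNA-Lys-CTT-2 took 4.01, 4.81 and 3.53% in the 3 libraries low in mt-tRNA and at least 6.55% in the other 15. Of these 4 isodecoders, tRNA-Lys-CTT-2 had the largest log2 change over the 4 comparisons, 0.732 for 5xFAD shCT against WT shCT (SE 0.518, 95% interval -0.36 to 1.83, limma adjusted p = 0.564), and 0.341 without the 3 libraries.

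Of the 17 isodecoders, 14 passed the filter on low values and entered the fit over 186 isodecoders. The remaining tRNA-Lys-CTT-7, tRNA-Lys-CTT-12 and tRNA-Lys-TTT-4 had a mean under 0.001% of mature reads. limma called 0 of the 186 (0%) in every comparison and in the interaction, where 1 to 20 had an unadjusted p under 0.05, with no lysine isodecoder among them. Leaving out the 3 libraries low in mt-tRNA, limma also called 0, with 5 to 44 isodecoders at an unadjusted p under 0.05. The lysine isodecoder among them was tRNA-Lys-CTT-4, with an interaction of -1.10 (SE 0.458, limma adjusted p = 0.211). DESeq2 called 1 isodecoder, not a lysine one, between WT shRTP801 and WT shCT, and edgeR called 0. The 14 lysine isodecoders had a median log2 change of 0.285 for 5xFAD shCT against WT shCT, beside 0.308 for all isodecoders. The medians were 0.0608 and 0.0601 for WT shRTP801 against WT shCT, -0.19 and -0.22 for 5xFAD shRTP801 against 5xFAD shCT, and -0.032 and -0.12 for 5xFAD shRTP801 against WT shRTP801.

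The rare isodecoders showed a pattern that ran with the libraries and not with the groups, and those named here were chosen after their values were seen. The types of read that make up these isodecoders also differed, and they are given below. tRNA-Lys-CTT-13 had 23, 92 and 35 reads in WT shCT mouse 5, WT shRTP801 mouse 4 and 5xFAD shRTP801 mouse 7, against 1070 to 5403 reads in the other 15 mice. tRNA-Lys-CTT-5 had 1, 55 and 6 reads against 436 to 1354. tRNA-Lys-CTT-8 had 0, 6 and 0 reads against 116 to 770, and tRNA-Lys-CTT-9 had 0, 7 and 7 against 110 to 525. tRNA-Lys-CTT-12 had 0 reads in the 3 libraries and 3 to 16 in the others. A count of 0 allows a share of mature reads of up to 1.53e-05% in WT shCT mouse 5, 1.69e-05% in WT shRTP801 mouse 4 and 1.62e-05% in 5xFAD shRTP801 mouse 7.

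The opposite was seen for tRNA-Lys-TTT-5, which had 3613, 3413 and 4540 reads in these 3 libraries and 310 to 1553 in the others. As a share of the TTT family it took 2.81, 2.43 and 3.37%, against 0.312 to 1.53%. As a share of mature reads, 10 of the 17 lysine isodecoders were lower in all 3 libraries than in any other mouse. All 10 were CTT isodecoders. The 3 that were higher were tRNA-Lys-TTT-1, tRNA-Lys-TTT-2 and tRNA-Lys-TTT-5, and 4 overlapped. Of the 14 lysine isodecoders that entered the fit, 8 were lower, 3 were higher and 3 overlapped. Over all 186 isodecoders of the fit, 28.5% were lower and 11.3% higher. The 3 libraries were set apart by their mt-tRNA, so these counts are descriptions with no test.

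**Figure D3:**
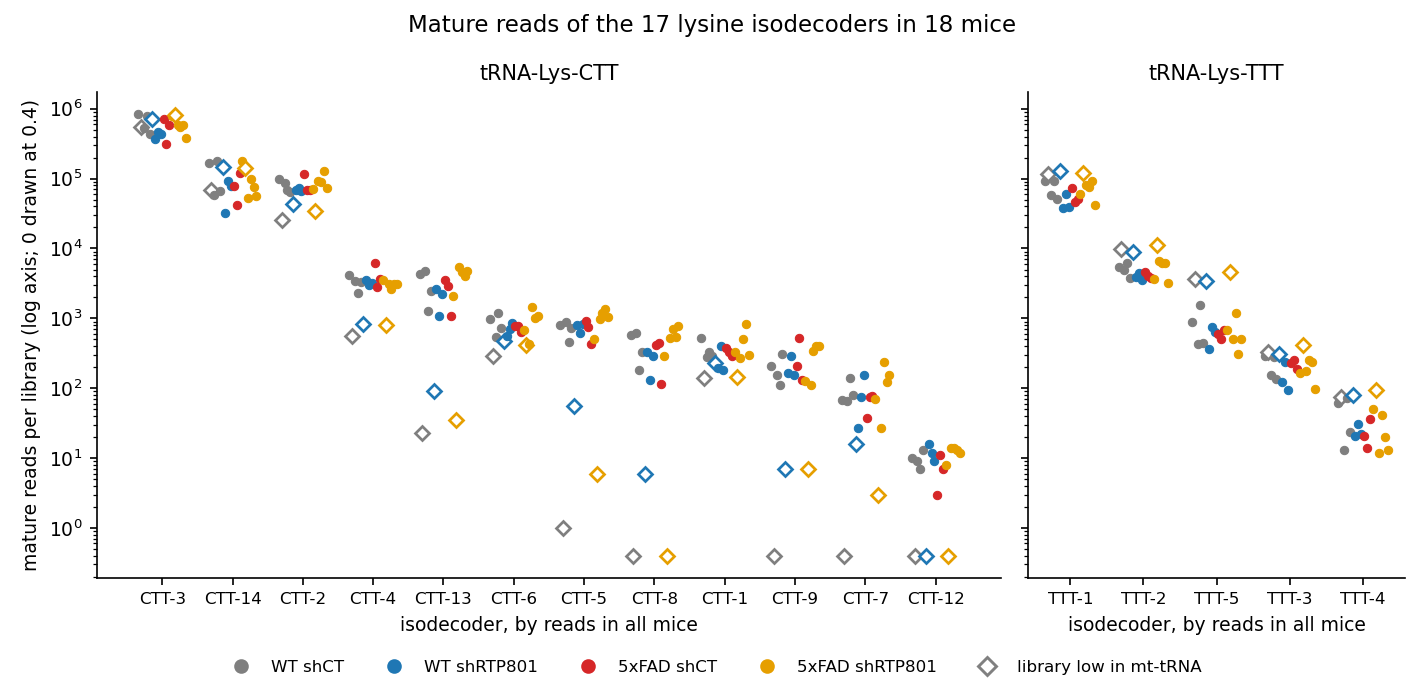
Mature reads of the 12 CTT and 5 TTT isodecoders in each of 18 libraries, on a log axis with 0 reads drawn at 0.4. Colours give the group and open diamonds the 3 libraries low in mt-tRNA, which lie below the other mice for tRNA-Lys-CTT-13, CTT-5, CTT-8, CTT-9 and CTT-12 and above them for tRNA-Lys-TTT-5.

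Mature reads were divided by tRAX into whole reads (both ends of the tRNA), five-prime and three-prime reads (1 end) and other reads (neither end). Three-prime reads made up 94.8% ± 2.52 (SD, n = 18) of tRNA-Lys-CTT and 90.4% ± 2.51 of tRNA-Lys-TTT reads, near the median of 92.4% over 49 families. Five-prime reads made up 8.90% ± 2.54 of the TTT reads and 1.21% ± 0.574 of the CTT reads, against a median of 0.481% over families. The five-prime share was higher in TTT than in CTT in 18 of 18 mice, with 5.41 to 13.7% against 0.504 to 2.47%. Whole reads (0.655% against 0.0654%) and other reads (3.36% against 0.633%) were higher in CTT in 18 of 18 mice.

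The read types differed between isodecoders of a family. Five-prime reads were 6.62% of tRNA-Lys-TTT-1 and 44.1% of tRNA-Lys-TTT-2 reads (29.6 to 57.0% by mouse). They were 5.53% of tRNA-Lys-CTT-2, 0.627% of tRNA-Lys-CTT-3 and 0.000116% of tRNA-Lys-CTT-14 reads. The other reads of tRNA-Lys-TTT-1 and tRNA-Lys-TTT-2 were identical in every mouse (3766 reads each over 18 mice), so these are shared between both entries and cannot be assigned to either one. tRNA-Lys-CTT-13 had 0 three-prime reads, and 98.2% of its reads were of the other type. Among isodecoders lower in the 3 libraries low in mt-tRNA, tRNA-Lys-CTT-7, CTT-8 and CTT-9 had 98.7, 99.8 and 99.9% other reads. tRNA-Lys-CTT-12 and CTT-6 had 57.0 and 56.8%, and tRNA-Lys-CTT-5 had 62.4% five-prime reads. tRNA-Lys-CTT-1, CTT-2 and CTT-4, also lower, had 99.0, 90.4 and 88.3% three-prime reads. tRNA-Lys-TTT-5, higher there, had 99.5%. Whether read types account for these differences was not tested.

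The 3 libraries low in mt-tRNA had the fewest other reads in both families (0.401, 0.808 and 0.619% of CTT reads, at least 2.13% elsewhere) and the highest three-prime share of CTT (98.5 to 98.9%, at most 96.8% elsewhere). Of the 8 read types, 7 passed the filter and were tested, and whole TTT reads were too few. limma called 0 of 153 read types (0%) in every comparison and in the interaction, where 4 to 19 had an unadjusted p under 0.05 but none of lysine. Without the 3 libraries, limma called 3 of the 153 read types for 5xFAD shRTP801 against 5xFAD shCT and 8 for the interaction, none of them of lysine. The 7 lysine read types had log2 changes between -0.39 and 0.864 over the 4 comparisons, with limma adjusted p values of 0.825 or more, and of 0.408 or more without the 3 libraries.

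**Figure D4:**
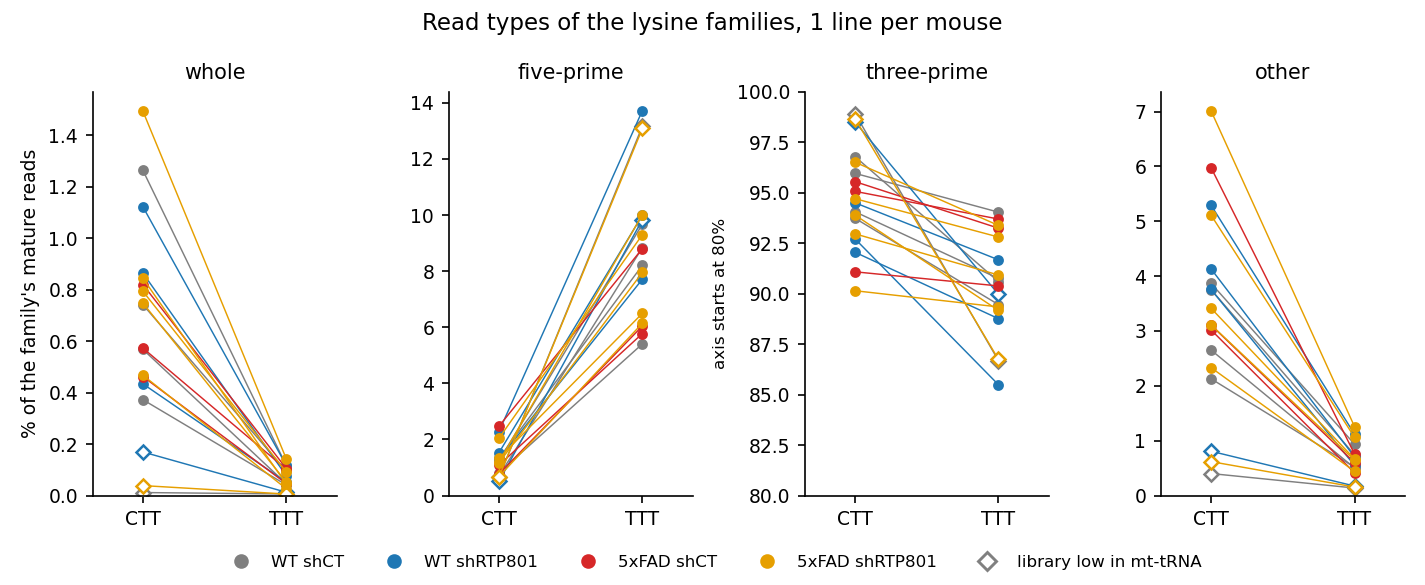
Share of whole, five-prime, three-prime and other reads among the mature reads of tRNA-Lys-CTT and tRNA-Lys-TTT, with 1 line per mouse coloured by group and open diamonds for the 3 libraries low in mt-tRNA. The axis of the three-prime panel starts at 80%. Five-prime reads rise from CTT (at most 2.47%) to TTT (at least 5.41%) in all 18 mice.

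Precursor reads are assigned to single gene copies through their flanks. Nearly all of them covered part of the precursor: 99.7% in both families, with 414 whole precursor reads for CTT and 60 for TTT, and 0 trailer reads. Relative to its mature reads, tRNA-Lys-TTT had the larger precursor pool, at a median of 16 precursor reads per 1000 mature reads (5.18 to 25.3, rank 7 of 48 families). tRNA-Lys-CTT had 8.08 (4.50 to 24.0, rank 14), and the median over families was 4.67. The TTT value exceeded the CTT value in 13 of 18 mice. The 5 exceptions were WT shCT mice 3, 5 and 11, WT shRTP801 mouse 4 and 5xFAD shRTP801 mouse 7, among them all 3 libraries low in mt-tRNA.

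For CTT, these 3 libraries held 20.8, 15.0 and 24.0 precursor reads per 1000 mature reads and WT shCT mouse 11 held 15.3, while the other 14 mice held at most 8.44. For TTT they held 12.5, 9.72 and 15.1, within the range of the others. Over all families, the 3 libraries held 179658 to 318628 precursor reads, against 47875 to 130675 in the others (130675 in WT shCT mouse 11). Their mature reads lay within the range of the others. More precursor reads per mature read were thus seen over all families together and not for CTT alone. The reads per 1000 mature reads were not tested between groups. The ratio tested was a family's percentage of precursor reads over its percentage of mature reads, which is relative to the class totals of the library. limma called 0 of 48 such ratios (0%) in every comparison and in the interaction, where 1 to 5 had an unadjusted p under 0.05 and none was of lysine. In the other 15 libraries it called 0, with 3 to 12 at an unadjusted p under 0.05 and none of lysine. The largest lysine change was that of TTT in 5xFAD shCT against WT shCT, at 0.740 on the log2 scale (SE 0.678, 95% interval -0.69 to 2.17, limma adjusted p = 0.462). Without the 3 libraries it was 0.504 (limma adjusted p = 0.579).

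The pools of precursor and mature reads were divided differently among the CTT isodecoders. The 7 loci of tRNA-Lys-CTT-3 gave 98.4% of CTT precursor reads (96.2 to 99.3% by mouse), beside 76.4% of mature reads. The single locus of tRNA-Lys-CTT-14 gave 0.558% of precursor reads beside 12.7% of mature reads, and the 2 loci of tRNA-Lys-CTT-2 gave 0.990% beside 9.83%. In all 18 mice tRNA-Lys-CTT-14 and tRNA-Lys-CTT-2 had a higher share of mature than of precursor reads, and tRNA-Lys-CTT-3 a lower one. The median number of precursor reads per 1000 mature reads was 10.5 for tRNA-Lys-CTT-3, 0.941 for tRNA-Lys-CTT-2 and 0.282 for tRNA-Lys-CTT-14. Of the 1731177 mature reads of tRNA-Lys-CTT-14, 2 were five-prime and 0 were whole reads. Mature reads can be shared between isodecoders, so differences in these ratios cannot be told apart from differences in read assignment. In the TTT family both shares were close, with 94.6% and 91.2% for tRNA-Lys-TTT-1 and its 6 loci, and 5.42% and 6.94% for tRNA-Lys-TTT-2 and its 2 loci. tRNA-Lys-CTT-6 has 1 locus, with 0.0431% of CTT precursor reads beside 0.0998% of CTT mature reads. The remaining 11 lysine isodecoders have no locus entry in the table.

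Within tRNA-Lys-CTT-3, the loci CTT-3-1 (28.4% of CTT precursor reads), CTT-3-2 (23.9%), CTT-3-4 (22.0%) and CTT-3-3 (14.8%) held most reads. CTT-3-5 and CTT-3-6 had nearly the same partial precursor reads (5335 and 5435 over all mice), which differed by 2.44% in sum, so they may share reads. tRNA-Lys-CTT-3-1 was the most variable, at 13.7 to 37.9% of the CTT precursor reads in single mice. It took 37.9, 36.1 and 36.0% in the 3 libraries low in mt-tRNA and 35.2% in WT shCT mouse 11, against 29.2% or less in the other 14 mice. tRNA-Lys-CTT-3-2 took 17.8 to 18.3% in the 3 libraries and 20.4 to 33.9% in the others.

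As a percentage of all precursor tRNA reads, tRNA-Lys-CTT-3-1 was 2.94, 2.23, 1.05, 4.28 and 1.46% in WT shCT mice 3, 5, 6, 11 and 15. It was 2.69, 1.27, 1.21 and 1.21% in WT shRTP801 mice 4, 10, 17 and 21, 1.34, 1.10 and 1.84% in 5xFAD shCT mice 1, 16 and 18, and 0.724 to 3.48% in 5xFAD shRTP801 mice. The groups overlapped, and the change in 5xFAD shCT against WT shCT was -0.61 on the log2 scale (SE 0.537, limma adjusted p = 0.556), and -0.59 without the 3 libraries.

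In the TTT family, tRNA-Lys-TTT-1-3 (28.8% of TTT precursor reads), tRNA-Lys-TTT-1-4 (23.6%) and tRNA-Lys-TTT-1-1 (14.8%) were the main loci. tRNA-Lys-TTT-1-3 was 0.160, 0.135, 1.0, 0.109 and 0.656% of all precursor tRNA reads in WT shCT mice 3, 5, 6, 11 and 15, and 0.126, 0.787, 0.402 and 0.348% in WT shRTP801 mice 4, 10, 17 and 21. It was 0.969, 0.648 and 0.245% in 5xFAD shCT mice 1, 16 and 18, and 0.109 to 1.38% in 5xFAD shRTP801 mice. The highest mouse thus held 12.7 times the share of the lowest, and each group held both low and high mice. The log2 change in 5xFAD shCT against WT shCT was 0.965 (SE 0.875, 95% interval -0.87 to 2.80, limma adjusted p = 0.556), and 0.71 without the 3 libraries.

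The 7 mice with the highest precursor tRNA-Lys-TTT level (1.62% or more) were also the 7 in which tRNA-Lys-TTT-1-3 took the largest share of the family, at 33.9 to 41.2% against 16.5 to 28.9% in the other 11. Those mice were WT shCT mice 6 and 15, WT shRTP801 mouse 10, 5xFAD shCT mice 1 and 16, and 5xFAD shRTP801 mice 8 and 19, and all groups were represented. Over 18 mice, the share of tRNA-Lys-TTT-1-3 in its family had a Pearson correlation of 0.894 and a Spearman correlation of 0.932 with the precursor TTT level (Pearson 0.936 without the 2 farthest mice). These measures share the reads of tRNA-Lys-TTT-1-3. The share of tRNA-Lys-TTT-1-3 in the TTT family ran against that of tRNA-Lys-CTT-3-1 in the CTT family, with a Pearson correlation of -0.88 and a Spearman correlation of -0.92 (-0.85 and -0.89 over the 15 libraries, Pearson -0.87 without the 2 farthest mice). These shares have no reads in common but come from the same libraries, and these relations were chosen after the values were seen.

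**Figure D5:**
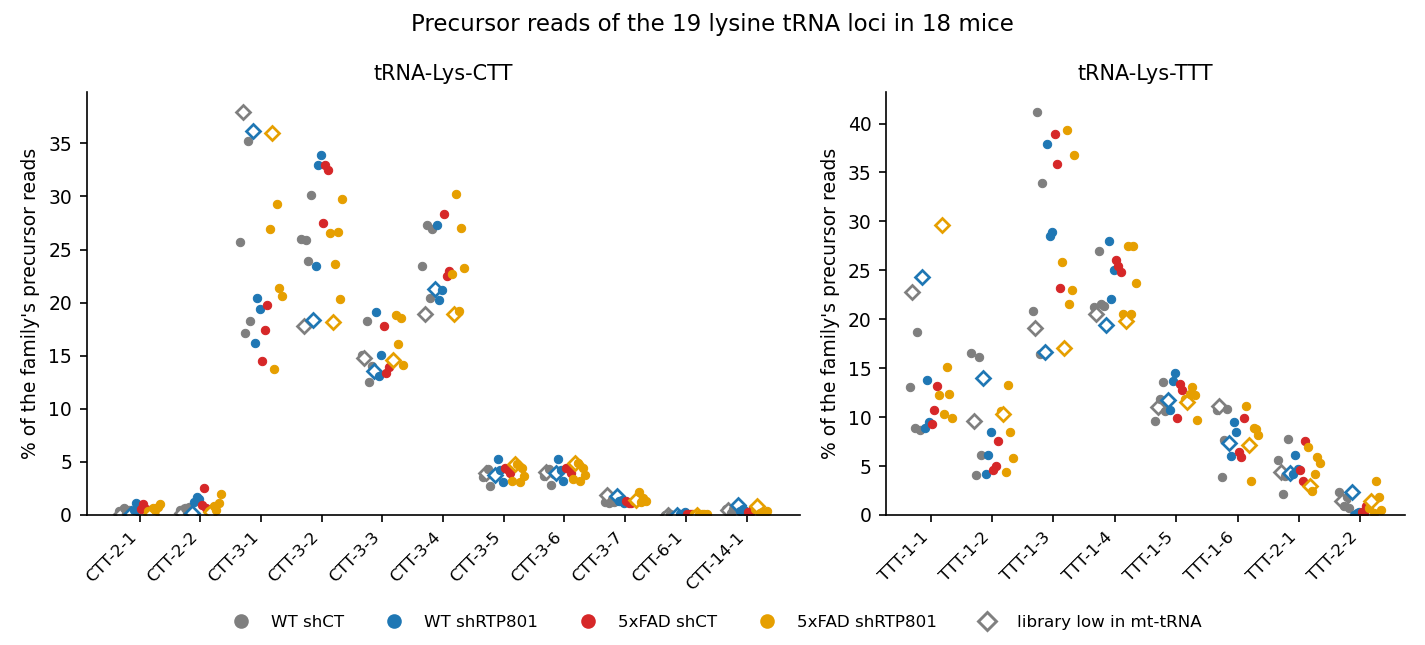
Share of each of the 11 CTT and 8 TTT loci in the precursor reads of its family, in 18 mice coloured by group, with open diamonds for the 3 libraries low in mt-tRNA. The diamonds are high for CTT-3-1 (36.0 to 37.9%) and TTT-1-1 (22.8 to 29.7%) and low for CTT-3-2 (17.8 to 18.3%). TTT-1-3 spans 16.5 to 41.2%.

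limma called 0 of 333 pre-tRNA loci (0%) in every comparison and in the interaction, with 7 to 52 loci at an unadjusted p under 0.05. All 19 lysine loci were tested, and 1 of them, tRNA-Lys-TTT-2-2, reached an unadjusted p under 0.05. edgeR and DESeq2 called 0 loci. At an unadjusted p under 0.05, edgeR had 9 to 50 of the 333 loci, with 0 to 1 of lysine, and DESeq2 had 10 to 55, with 0 to 2 of lysine. Over the 15 other libraries limma called 0, with 24 to 74 loci at an unadjusted p under 0.05 and 0 to 3 lysine loci among them. Besides tRNA-Lys-TTT-2-2 these were tRNA-Lys-CTT-2-2 and tRNA-Lys-CTT-6-1, for which the interaction was -1.82 (SE 0.674, limma adjusted p = 0.116) and -1.97 (SE 0.611, limma adjusted p = 0.109). Both loci are rare, with 22 to 86 reads per mouse (median 39.5) for tRNA-Lys-CTT-2-2 and 0 to 14 (median 3) for tRNA-Lys-CTT-6-1. The 19 lysine loci had a median log2 change of 0.307 for 5xFAD shCT against WT shCT, beside 0.0311 for all loci. The medians were -0.31 and -0.13 for 5xFAD shRTP801 against 5xFAD shCT. They were -0.016 and -0.057 for WT shRTP801 against WT shCT, and -0.041 and -0.031 for 5xFAD shRTP801 against WT shRTP801.

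tRNA-Lys-TTT-2-2 is a rare locus, and it is described because of its unadjusted p. It had 12, 23, 12, 16 and 7 reads in WT shCT mice 3, 5, 6, 11 and 15, and 32, 0, 3 and 3 reads in WT shRTP801 mice 4, 10, 17 and 21. It had 4, 2 and 7 reads in 5xFAD shCT mice 1, 16 and 18, and 4 to 29 (median 10) in 5xFAD shRTP801 mice. The 0 reads of WT shRTP801 mouse 10 allow a share of up to 0.00590%. As a share of precursor reads, WT shRTP801 mouse 4, 1 of the libraries low in mt-tRNA, lay at 0.0178%, within the range of WT shCT (0.0101 to 0.0219%), whereas the other 3 mice of its group were lower than every WT shCT mouse.

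The log2 change of tRNA-Lys-TTT-2-2 in WT shRTP801 against WT shCT was -1.81 (SE 0.626, limma adjusted p = 0.437), and -2.62 without the 3 libraries (limma adjusted p = 0.109). In 5xFAD shRTP801 against WT shRTP801 it was 1.43 (SE 0.603, limma adjusted p = 0.991), and 2.17 without the 3 libraries (limma adjusted p = 0.524). The interaction of genotype and treatment was 2.51 (SE 0.910, limma adjusted p = 0.241). It was 3.38 (limma adjusted p = 0.0623) without the 3 libraries, and it passed the threshold when only WT shRTP801 mouse 4 was left out (3.20, limma adjusted p = 0.0454). How many of all loci passed in that fit was not counted, so this call cannot be taken as particular to the locus. Without WT shRTP801 mouse 10, the mouse with 0 reads, both changes and the interaction were -1.08, 0.703 and 1.78, with limma adjusted p values of 0.817, 0.997 and 0.423. The interaction ran from 1.11 to 3.50 with other pseudocounts, and the change in WT shRTP801 against WT shCT was -1.08 in edgeR and -0.98 in DESeq2.

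Families of comparable codon boxes were set beside lysine. These were tRNA-Glu-TTC, tRNA-Gln-TTG, tRNA-Arg-TCT and tRNA-Gly-TCC, with a modified wobble uridine, and tRNA-Glu-CTC and tRNA-Gln-CTG, which decode the G-ending codons. limma called 0 of these 6 families in mature reads, precursor reads or their ratio, in any comparison, and 0 had an unadjusted p under 0.05. Mature tRNA-Glu-TTC took 3.78% ± 1.21 and tRNA-Gln-TTG 0.582% ± 0.332 of mature reads (n = 18). tRNA-Glu-TTC lay at 5.06 to 6.35% in the 3 libraries low in mt-tRNA and at 2.37 to 5.34% elsewhere, with some overlap. tRNA-Gln-TTG was lowest there, at 0.118 to 0.122% against 0.307 to 1.08% elsewhere. So were tRNA-Gln-CTG, at 0.251 to 0.448% against 2.74 to 13.5%, and tRNA-Gly-TCC, at 0.0522 to 0.103% against 0.262 to 1.34%. tRNA-Arg-TCT was highest there, at 0.153 to 0.352% against 0.0559 to 0.147%. tRNA-Glu-CTC lay at 1.67 to 1.84%, within the 1.42 to 4.02% seen elsewhere.

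Of 48 other families, those whose mature level was most like tRNA-Lys-CTT over 18 mice were Sup-TCA (the name in the table), Thr-AGT and Thr-CGT, with Spearman correlations of 0.812, 0.728 and 0.635. For tRNA-Lys-TTT they were Arg-ACG (0.711), Trp-CCA (0.668) and Arg-TCG (0.657). Over the 15 libraries with mt-tRNA the values were 0.793, 0.818 and 0.614 for the first list and 0.546, 0.457 and 0.411 for the second. Between both lysine families the Spearman correlation was 0.331 over 18 mice and 0.629 over these 15, where it exceeded those of the 3 families listed for tRNA-Lys-TTT. These values describe percentages of the same libraries, which sum to 100% over families.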

How the data were processed

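RNA of tRNA size from the hippocampus of 18 mice had been hydrolyzed and sequenced, and the authors counted merged reads per mature tRNA, pre-tRNA locus and read type with tRAX. The build mm39 stands in the submitters' processing notes, and the aligner and the version of tRAX are not given in the sources used here. The deposited values are a signal, namely read counts divided by a size factor of each library. In each library, dividing by the lowest value above 0 gave whole numbers for all entries (tolerance 0.01), which were taken as the reads. The table used holds no sequences.

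Percentages of the mature or precursor tRNA reads were computed per mouse. Features with a mean of at least 0.001% were tested with limma (3.58.1, R 4.3.3) on log2(percentage + 0.001%), with all 4 groups in 1 fit, 4 contrasts and an interaction, and Benjamini-Hochberg adjustment over all features of a contrast (threshold 0.05). Log2 changes are on this scale, which understates the change of low features. Read types were tested as percentages of their family, with a pseudocount and filter of 0.1%. Family percentages and log2 ratios were also compared by exact two-sided permutation tests, computed in Python (3.11.15). edgeR (4.0.16) and DESeq2 (1.42.0) on the recovered reads, other pseudocounts, no filter, centring, the deposited values, single pairs of groups, and leaving out single mice or the libraries with under 1% mt-tRNA were alternatives. Scripts were tested on simulated data. Each library is a separate mouse. Depth limits the precision of precursor more than of mature values.

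The families, isodecoders with at least 1% of lysine reads, the 3 loci of each anticodon with most precursor reads, 3 most similar families each and 6 codon-box families were named by rule. The members and lists were chosen with earlier results of these data known.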

Additional observations from a re-analysis of the deposited data

Results flagged for a closer look

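Of 78 groups of 4 to 6 mice screened for a single mouse far from the others of its group, 12 held one, and chance flags about 1 in 20 groups. Of these, 6 came from libraries low in mt-tRNA. In WT shRTP801 mouse 4, mature tRNA-Lys-TTT was 0.790% (others 0.434 to 0.456%), tRNA-Lys-TTT-1 was 0.719% (0.390 to 0.417%), tRNA-Lys-CTT-3-1 was 2.69% (1.21 to 1.27%) and the CTT precursor reads per 1000 mature reads were 15.0 (7.81 to 8.32). The latter value was 24.0 in 5xFAD shRTP801 mouse 7 (others 4.50 to 8.44). The mature log2 ratio of CTT to TTT was 2.33 in WT shCT mouse 5 (others 3.35 to 3.50).

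The other 6 came from the remaining libraries. In 5xFAD shRTP801 mouse 2, precursor tRNA-Lys-CTT was 12.9% (others 5.28 to 7.42%) and tRNA-Lys-CTT-3-2 was 3.43% (1.25 to 1.82%). In 5xFAD shRTP801 mouse 8, precursor tRNA-Lys-TTT was 3.51% (0.638 to 1.62%), tRNA-Lys-TTT-1-4 was 0.964% (0.126 to 0.384%) and tRNA-Lys-TTT-1-1 was 0.360% (0.0968 to 0.189%). tRNA-Lys-TTT-1-1 was low in WT shRTP801 mouse 21, at 0.114% (0.185 to 0.193%).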

How the results depend on the processing

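Of 1299 values of 53 results under the alternatives, 1220 kept their direction and side of the threshold, 78 changed sign with no adjusted p under 0.260, and 1 count moved. The cause of these changes was not tested. No paired analysis was possible because mouse numbers are not shared between groups. Counting near-identical copies once was added after seeing the data.

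Log2 changes that turned sign are given in the order 5xFAD shCT against WT shCT, 5xFAD shRTP801 against 5xFAD shCT, 5xFAD shRTP801 against WT shRTP801, WT shRTP801 against WT shCT, and interaction. Mature tRNA-Lys-CTT was -0.623, 0.415, 0.223, -0.431 and 0.846 in the deposited values, -0.0589, 0.0637, 0.0927, -0.0880 and 0.152 in edgeR, and -0.0863, 0.0773, 0.0250, -0.0340 and 0.111 after centring on the median. In DESeq2 the last 3 were 0.0861, -0.0208 and 0.000387. The median of all mature families in the deposited values was -0.542, 0.388, 0.0687, -0.417 and 0.762 in the same order. Without the libraries low in mt-tRNA, mature tRNA-Lys-CTT in WT shRTP801 against WT shCT was -0.106. Mature tRNA-Lys-TTT in 5xFAD shRTP801 against 5xFAD shCT was -0.0258 without them. With copies counted once, mature tRNA-Lys-TTT in 5xFAD shRTP801 against WT shRTP801 was -0.00158. Precursor tRNA-Lys-CTT in 5xFAD shRTP801 against 5xFAD shCT was 0.626 in the deposited values and 0.168 after centring. Precursor tRNA-Lys-TTT in the deposited values was -0.379 and 0.317 for the first 2 comparisons and 0.235 for the interaction. In 5xFAD shRTP801 against WT shRTP801 it was 0.0573 in edgeR, 0.0756 in DESeq2 and 0.0224 after centring.

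Leaving out single mice, mature tRNA-Lys-CTT ran in the same order from -0.0657 to 0.497, -0.493 to 0.0704, -0.158 to 0.0547, -0.106 to 0.111 and -0.529 to 0.0340. Mature tRNA-Lys-TTT ran from -0.234 to 0.000802, -0.0662 to 0.187, -0.101 to 0.208, -0.273 to 0.0146 and -0.000619 to 0.348. Precursor tRNA-Lys-CTT ran from -0.155 to 0.157 (5xFAD shCT against WT shCT), -0.128 to 0.130 (5xFAD shRTP801 against WT shRTP801) and -0.110 to 0.202 (interaction). Precursor tRNA-Lys-TTT ran from -0.449 to 0.101 (5xFAD shRTP801 against WT shRTP801) and -0.0275 to 0.489 (WT shRTP801 against WT shCT). The precursor to mature change of CTT ran from -0.194 to 0.0894 (5xFAD shRTP801 against 5xFAD shCT) and -0.0496 to 0.165 (5xFAD shRTP801 against WT shRTP801). That of TTT ran from -0.588 to 0.181 (5xFAD shRTP801 against WT shRTP801) and -0.0421 to 0.727 (WT shRTP801 against WT shCT). The mature log2 ratio of CTT to TTT ran from -0.240 to 0.125 (5xFAD shRTP801 against WT shRTP801) and -0.113 to 0.311 (WT shRTP801 against WT shCT), and the precursor ratio from -0.0805 to 0.579 (5xFAD shRTP801 against WT shRTP801). The number of lysine loci called for the interaction ran from 0 to 1, and the 1 was tRNA-Lys-TTT-2-2 without WT shRTP801 mouse 4. The calls over all loci in that fit were not counted.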
